A study of Mus musculus with 6 samples.

Results

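The genes described here are dystrotelin (Dytn) and 8 of its relatives in the dystrophin glycoprotein complex, namely Dmd, Utrn, Dtna, Dtnb, Dag1, Sgca, Sgcb and Sgcd. They were found by symbol in a count table of 24421 symbols, which held all 9 of them. Dytn was chosen by its counts in these same samples, in which it was far lower in neomycin-treated than in control explants, so its difference is given as a description without a test. The relatives were added for their family and complex, and their differences were tested. RNA came from explants of the cochlea, the hearing organ, of neonatal mice at postnatal day 2 (P2) that the labels call WT. The explants were kept for 12 h in culture and later for 5 more days in the presence of EdU (10 μM), a thymidine analog. In the neomycin group, neomycin, an aminoglycoside antibiotic that is toxic to hair cells (HCs), was added at 1 mM for 6 h between these periods, and control explants are those that the treatment label calls control, although the protocol text of all 6 samples mentions neomycin. Each group had 3 samples, and each sample pooled 6 to 8 cochleae from which the stria vascularis anlage, the modiolus and the tectorial membrane had been taken off, so an animal cannot be followed within a sample. Total counts ran from 50471116 to 66068108 per sample.

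Dystrophin is a long rod-shaped protein under the plasma membrane. It ties the actin cytoskeleton to beta-dystroglycan, which spans the membrane, and alpha-dystroglycan on the outer face holds laminin and other proteins of the basement membrane through its sugar chains. Utrophin can take the place of dystrophin, dystrobrevins and syntrophins bind to either, and the sarcoglycans steady the complex beside dystroglycan. Loss of dystrophin or of sarcoglycans causes muscular dystrophy, while dystroglycan and utrophin are also made by many epithelia, vessels and glia. Dystrotelin is a short and distant member of the dystrophin family that carries the ZZ zinc finger of the family but not its long rod, and little is known of what it does.

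The stretch before the transcript start is shown for 3 genes that mark the extremes of the data, Dytn as the gene with the largest difference, Dag1 as the gene with the highest level and Sgca as a gene with hardly any reads. Each is the 250 bases upstream of a RefSeq start on GRCm38.p6, written 5′ to 3′ on the strand of the gene, with each CpG in capitals. The positions are chr1:63686928-63687177 for Dytn, chr9:108263959-108264208 for Dag1 and chr11:94976328-94976577 for Sgca, all on the minus strand.
Dytn: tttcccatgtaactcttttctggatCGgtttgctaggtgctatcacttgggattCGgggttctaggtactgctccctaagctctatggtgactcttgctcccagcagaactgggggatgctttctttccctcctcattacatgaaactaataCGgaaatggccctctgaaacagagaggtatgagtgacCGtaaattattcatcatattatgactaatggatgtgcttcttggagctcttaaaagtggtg
Dag1: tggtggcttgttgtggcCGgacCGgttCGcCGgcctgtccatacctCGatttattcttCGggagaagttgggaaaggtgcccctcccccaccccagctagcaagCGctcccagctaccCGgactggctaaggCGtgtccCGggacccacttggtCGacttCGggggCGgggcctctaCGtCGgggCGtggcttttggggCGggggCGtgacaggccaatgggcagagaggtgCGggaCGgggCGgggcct
Sgca: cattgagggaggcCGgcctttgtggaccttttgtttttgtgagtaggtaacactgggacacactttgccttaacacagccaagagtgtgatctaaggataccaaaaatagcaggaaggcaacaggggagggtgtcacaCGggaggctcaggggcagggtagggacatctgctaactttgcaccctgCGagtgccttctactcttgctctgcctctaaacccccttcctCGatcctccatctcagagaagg
The Dytn stretch held 4 CpG and 44.4% G or C, the Sgca stretch 4 and 52.8%, and the Dag1 stretch 21 and 67.6%. Among 32851 RefSeq promoters of the same length, the median was 6 CpG and 52.4% G or C, and 62.2% held at least as many CpG as Dytn while 16.3% held at least as many as Dag1. A second RefSeq start of Dag1, at chr9:108263815, had 36 CpG and 74.8% G or C upstream, and 2.58% of promoters held at least as many. RefSeq entries matched 8 of the 9 genes. Of the other matched relatives, Dtnb was rich in CpG at all 4 of its starts, with 24 to 35, Sgcb held 14, Sgcd 9 and Utrn 2. The Sgcd start, at chr11:47379325, and the Utrn start, at chr10:12861735, lie inside genes annotated to begin at 47988969 and 12869365. Their counts therefore describe only those starts. Dmd, a gene with several promoters, held 2 CpG upstream of the start at X:82948870 and 7 upstream of the start at X:85048295. The E-box letters CANNTG, which read the same on both strands, occurred in each of the 3 printed stretches, as they did in 66.2% of all promoters.

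In the control explants, Dytn was read in each sample, with 283, 238 and 206 reads in control replicates 1, 2 and 3. After neomycin, the reads numbered 17, 16 and 11. As CPM, reads per library of a common size after TMM scaling, these were 4.10, 4.56 and 3.66 in control and 0.320, 0.271 and 0.205 after neomycin. Every neomycin sample lay far below every control sample, and Dytn was low but still present in each of them. The group means were 4.11 ± 0.449 CPM and 0.265 ± 0.0579 CPM (SD, n = 3 each), which is 15.4-fold lower and -3.94 on the log2 scale, with a standard error of 0.28. Ordered by log2 fold change from the lowest, Dytn stood at rank 7 of 15988 genes tested, next to Obp2b at -3.95 and Slc26a5 at -3.99, and behind Myot, which came first at -4.98. Over 16 alternative ways of processing, the log2 fold change of Dytn ran from -4.09 to -3.78. Dytn lies on chromosome 1 from 63622851 to 63686927 of mm10 on the minus strand, and no other annotated gene shares its exons.

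The tested relatives of Dytn differed between the groups by at most 1.32-fold. With 7 of the 8 having enough reads for a test, Utrn, Dtna and Dag1 were lower after neomycin at an adjusted p under 0.05, and none was higher. Of all genes tested, 29.0% had an adjusted p under 0.05 in either direction, 16.1% lower and 12.9% higher. None of the 7 passed the threshold for a call, an adjusted p under 0.05 with a fold change over 1.5 (edgeR), which 8.84% of all genes tested passed. The count was also 0 with DESeq2 and with limma-voom, and the 3 relatives with an unadjusted p under 0.05 were Utrn, Dtna and Dag1 under all 3 tools. Control and neomycin samples were fully separate for the same 3 of the 8 relatives, lower in each case, as they were for 43.5% of all genes tested in either direction and for 22.5% with neomycin lower. The median log2 fold change of the 7 was -0.12, beside 0.00 for all genes tested, with 4 negative and 3 positive values.

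**Figure D1:**
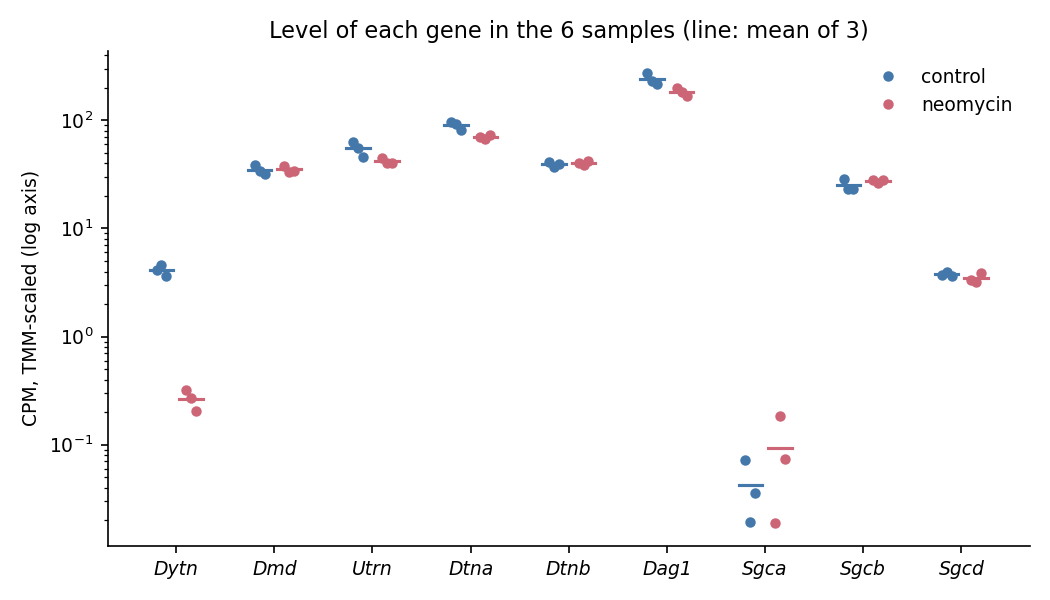
Level of the 9 genes in each sample, as TMM-scaled CPM on a log axis, with control in blue, neomycin in red, a point for each sample and a line at the mean of 3. Dytn separates from 3.66 to 4.56 CPM in control to 0.205 to 0.320 CPM after neomycin, Dag1 is the highest gene in both groups, and Sgca is the lowest in control.

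A trend with gene length ran through the comparison and touches the long genes of this family. Among genes with at most 1 kb of exons the median log2 fold change was 0.345, and among genes with over 16 kb it was -0.29. Dmd, Utrn and Dtna belong to the second kind, with 23.8, 17.1 and 16.9 kb of exons in all annotated transcripts together. The results of the relatives are therefore given both as measured and after the trend was removed. With it removed, 23.5% of all genes had an adjusted p under 0.05, 13.1% lower and 10.4% higher. The relatives that passed were then Dmd and Dtnb, both higher, and Dag1, lower. What gave rise to the trend was not tested. In pooled tissue of this kind, fewer cells of a type and less RNA per cell cannot be told apart.

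Dystrophin itself was level between the groups. Dmd, on the X chromosome from 82948870 to 85206141, read 38.6, 34.3 and 31.9 CPM in control and 37.8, 33.5 and 34.3 CPM after neomycin. The groups overlapped almost fully, at 34.9 ± 3.38 and 35.2 ± 2.28 CPM (SD, n = 3). The log2 fold change was 0.01 with a 95% interval from -0.18 to 0.20 (adjusted p = 0.949, edgeR). After the length correction Dmd was higher, by 0.31 (standard error 0.07, adjusted p = 0.00722, edgeR). When the correction used the median length of a gene's transcripts in place of all its exons, the value was 0.04 (adjusted p = 0.792, edgeR), so whether Dmd rose rests on which length is taken. The median is 1995.5 bases for Dmd, 2328 for Utrn and 2268.5 for Dtna. Their longest coding transcripts have 14910, 12382 and 6295 bases, so the correction on the median treats these 3 as much shorter genes.

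Utrophin, the paralog of dystrophin that occurs more widely, was lower after neomycin. Utrn, on chromosome 10 from 12382188 to 12869365, read 63.7, 56.0 and 46.1 CPM in control and 45.3, 40.7 and 40.2 CPM after neomycin. Control replicate 3 lay just above the highest neomycin sample, and the control group was the more spread, at 55.2 ± 8.82 against 42.0 ± 2.81 CPM (SD, n = 3). The difference on the log2 scale was -0.40 (standard error 0.11, adjusted p = 0.0153, edgeR). The adjusted p rose above 0.05 without control replicate 1 (-0.27, adjusted p = 0.0598, edgeR), control replicate 2 (0.0586), neomycin replicate 2 (0.0719) or neomycin replicate 3 (0.0530). It did so too after the length correction, at -0.13 (adjusted p = 0.216, edgeR). With the median transcript length it stayed under 0.05, at -0.33 (adjusted p = 0.0214, edgeR).

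Within each library, the reads of Dmd can be set against those of Utrn, which cancels library scaling. Dmd had 0.605, 0.613 and 0.692 reads for each Utrn read in control replicates 1, 2 and 3. After neomycin there were 0.834, 0.823 and 0.853. All 3 neomycin samples lay above all 3 control samples, and Utrn kept more reads than Dmd throughout. These are ratios of reads and not of transcripts, as the genes differ in length. On the log2 scale the ratio averaged -0.65 ± 0.11 (SD, n = 3) in control and -0.26 ± 0.03 (SD, n = 3) after neomycin, a difference of 0.40 with p = 0.10 in an exact two-sided permutation test, the smallest p that 3 samples against 3 can give. Leaving out a sample moved the difference between 0.36 and 0.46.

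The pair of dystrobrevins showed the same kind of split. Dtna encodes alpha-dystrobrevin, found in muscle, glia and many other cells, and lies on chromosome 18 from 23415135 to 23659715. It read 97.4, 93.5 and 81.8 CPM in control and 69.9, 68.0 and 72.9 CPM after neomycin. The groups stood apart, at 90.9 ± 8.12 and 70.2 ± 2.5 CPM (SD, n = 3), which is -0.37 on the log2 scale (standard error 0.08, adjusted p = 0.00472, edgeR). Dtna kept an adjusted p under 0.05 whichever sample was left out. After the length correction it did not, at -0.11 (adjusted p = 0.244, edgeR), and with the median transcript length it did, at -0.32 (adjusted p = 0.00721, edgeR). An antisense gene, Gm47898, shares 90 exon bases with Dtna, and the strand setting of the counting is not given in the sources used here.

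Dtnb, which encodes beta-dystrobrevin, the form known from brain and kidney and absent from muscle, gave no such difference. On chromosome 12 from 3572381 to 3781796, it read 41.0, 36.9 and 39.5 CPM in control and 40.7, 39.0 and 42.5 CPM after neomycin. The groups overlapped, and the log2 fold change was 0.06 with a 95% interval from -0.10 to 0.22 (adjusted p = 0.593, edgeR). After the length correction Dtnb was higher by 0.23 (adjusted p = 0.0434, edgeR), and with the median transcript length the value was 0.07 (adjusted p = 0.510, edgeR). Without TMM scaling Dtnb stood at -0.01 and Dmd at -0.06, neither past the threshold, so the sign of these small values turns with the scaling. Dtna had 2.38, 2.54 and 2.07 reads for each Dtnb read in control and 1.72, 1.74 and 1.72 after neomycin. The neomycin samples agreed closely with each other and lay below all control samples, with a difference of -0.43 on the log2 scale (exact two-sided permutation test, p = 0.10, the smallest possible).

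**Figure D2:**
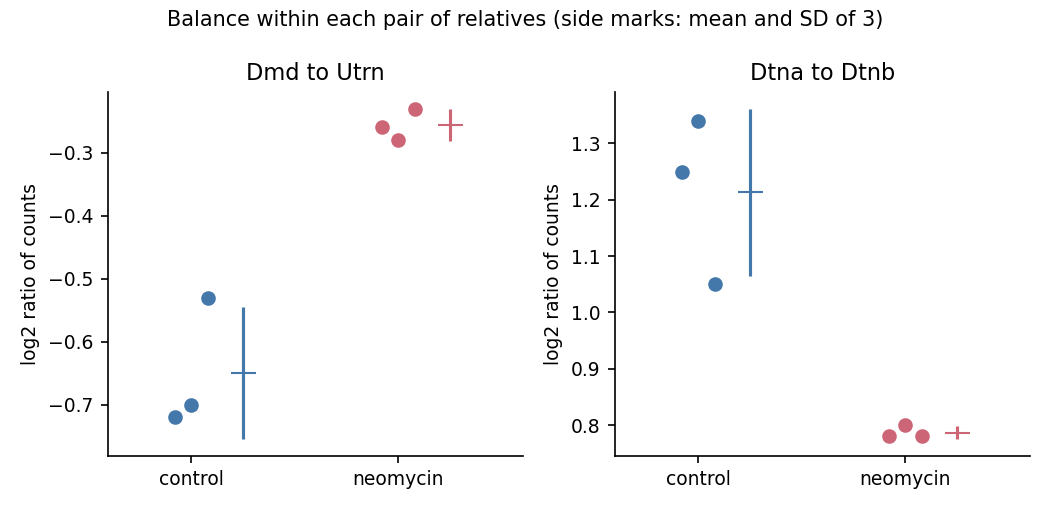
Log2 ratio of the reads of Dmd to Utrn (left) and of Dtna to Dtnb (right) in each sample, with the mean and SD of 3 beside the points; each panel has its own vertical scale. The ratio of Dmd to Utrn is higher in every neomycin sample (-0.28 to -0.23) than in every control sample (-0.72 to -0.53), and that of Dtna to Dtnb is lower (0.78 to 0.80 against 1.05 to 1.34).

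Dystroglycan was the most strongly read of the 9 genes and was also lower after neomycin. Dag1 encodes both its alpha and its beta part and lies on chromosome 9 from 108204634 to 108263958. Its levels were 273, 229 and 217 CPM in control and 200, 184 and 167 CPM after neomycin. No neomycin sample reached the lowest control sample, and the means were 240 ± 29.5 and 184 ± 16.4 CPM (SD, n = 3). On the log2 scale it stood at -0.38 (standard error 0.10, adjusted p = 0.0120, edgeR). After the length correction it was -0.29 (adjusted p = 0.0224, edgeR), which makes Dag1 the only relative that passed lower both ways. The adjusted p of Dag1 rose above 0.05 without neomycin replicate 2 (-0.38, adjusted p = 0.0553, edgeR) or replicate 3 (-0.32, 0.0577), and with the correction on median transcript length (-0.18, adjusted p = 0.102, edgeR).

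Of the 3 sarcoglycans, membrane proteins that sit beside dystroglycan, none gave a difference past the test. Sgcb, encoding beta-sarcoglycan, which occurs in muscle and elsewhere, lies on chromosome 5 from 73632749 to 73647790 and read 28.6, 23.3 and 23.4 CPM in control and 28.2, 26.2 and 27.9 CPM after neomycin. Its log2 fold change was 0.13 with a 95% interval from -0.08 to 0.34 (adjusted p = 0.346, edgeR). Sgcd, encoding delta-sarcoglycan, lies on chromosome 11 from 46896253 to 47988969 and read 3.75, 3.93 and 3.61 CPM in control and 3.31, 3.19 and 3.91 CPM after neomycin. It overlapped between the groups, at -0.12 with an interval from -0.50 to 0.26 (adjusted p = 0.644, edgeR), so a difference of the size seen in Utrn lies within what these samples allow for Sgcd. After the length correction Sgcb stood at 0.12 (adjusted p = 0.401, edgeR) and Sgcd at 0.03 (adjusted p = 0.929, edgeR). With the median transcript length the values were 0.17 (adjusted p = 0.201, edgeR) and -0.09 (adjusted p = 0.740, edgeR). Sgca, encoding alpha-sarcoglycan, the subunit found in striated muscle, had 5, 1 and 2 reads in control and 1, 11 and 4 after neomycin. At that level it was too low to be tested, and no difference could be detected at this depth. Sgca lies on chromosome 11 from 94962791 to 94976327.

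**Figure D3:**
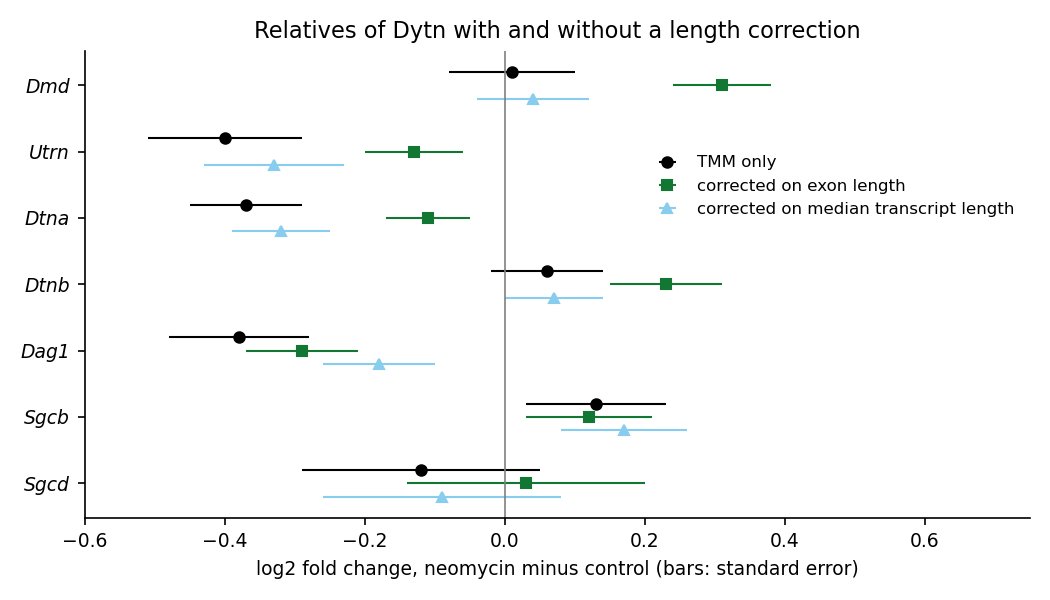
Log2 fold change of neomycin against control for the 7 tested relatives as measured (circles), after removal of the trend on exon length (squares) and after removal of the trend on median transcript length (triangles), with bars of 1 standard error. Utrn and Dtna move from -0.40 and -0.37 to -0.13 and -0.11 with the exon length, Dmd moves from 0.01 to 0.31, and the median transcript length leaves Dmd, Utrn and Dtna near their measured values. For these genes the median is far below the length of the longest coding transcript.

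Levels can be set beside each other between genes only per length. As CPM per kb of exon in the control samples, dystroglycan led at 37.7 ± 4.63, followed by Sgcb at 6.20 ± 0.746, Dtna at 5.37 ± 0.480, Dtnb at 4.07 ± 0.216, Utrn at 3.23 ± 0.515 and Dmd at 1.47 ± 0.142 (SD, n = 3). Dytn came after them at 0.669 ± 0.0730, above Sgcd at 0.456 ± 0.0193 and Sgca at 0.0244 ± 0.0157. In control, no 2 neighbours in this order overlapped in their samples, but the lowest Sgcb sample, at 5.76, and the highest Dtna sample, at 5.75, nearly met. In the neomycin samples Dytn dropped to the bottom of the order at 0.0432 ± 0.00942, where its samples overlapped those of Sgca at 0.0537 ± 0.0492, and Dtna at 4.15 ± 0.148 came level with Dtnb at 4.24 ± 0.179. The order among the dystrobrevins and Sgcb depends on the length used, since per kb of the longest coding transcript the control order was Dag1, Dtna, Dtnb, Sgcb, Utrn, Dmd, Dytn, Sgcd and Sgca.

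The genes whose profile over the 6 samples was most like that of Dytn were then sought. Likeness was the root mean square difference between log2 CPM values centred on each gene's own mean, among 14035 tested genes with a mean of at least 1 CPM, and is a description over 6 samples that mostly reflects the gap between the groups. The nearest was Slc26a5 at 0.10, which encodes prestin, the motor protein of outer HCs. Slc26a5 read 27.0, 27.1 and 23.1 CPM in control and 1.84, 1.69 and 1.30 CPM after neomycin. The CPM of Dytn came to 15.2%, 16.8% and 15.9% of that of Slc26a5 in the control samples and to 17.3%, 16.0% and 15.7% in the neomycin samples. Slc26a5 was picked for its likeness over these same samples, so the steadiness of this share follows from the choice. Next came Klhdc7b at 0.25, Gipc3, a deafness gene, at 0.26, Atp2a3, a calcium pump of the endoplasmic reticulum, at 0.29 and Ocm, the calcium-binding oncomodulin of outer HCs, at 0.34. For Ocm, the CPM of Dytn amounted to 1.75%, 1.54% and 0.968% in control and 1.05%, 0.901% and 0.813% after neomycin.

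**Figure D4:**
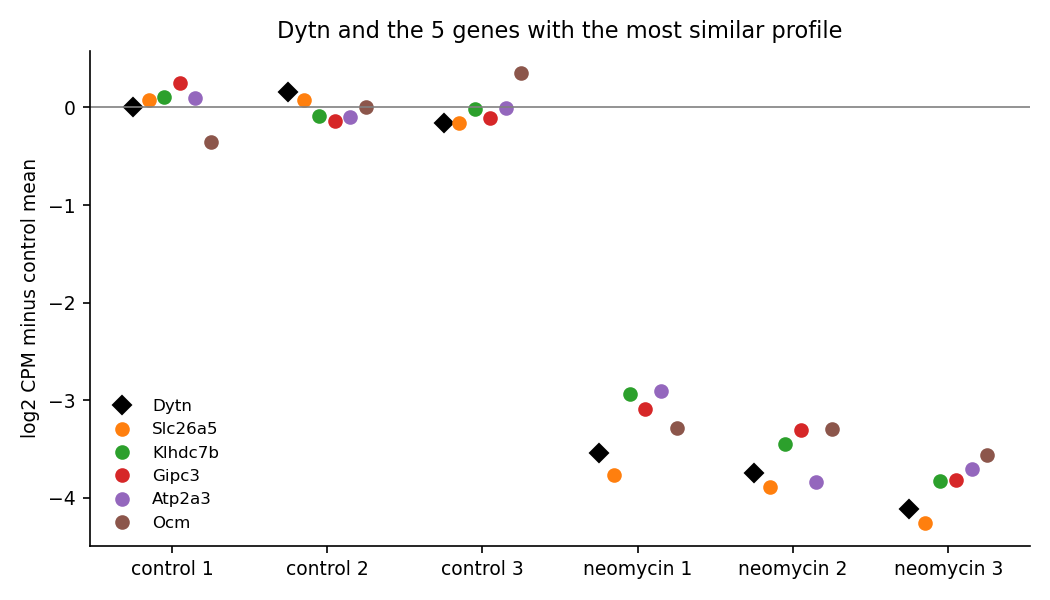
Log2 CPM of Dytn and of the 5 genes with the most similar profile in each of the 6 samples, each gene set to 0 at its control mean. Dytn lies at -3.54, -3.75 and -4.11 in neomycin replicates 1, 2 and 3, next to Slc26a5 at -3.77, -3.89 and -4.26.

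Most of the HC markers listed were lower after neomycin, as Dytn was. Of a list of 20 HC markers, 18 were lower at an adjusted p under 0.05 (edgeR), 16 of them by more than 1.5-fold. Of all genes tested, 16.1% were lower at that adjusted p, and 6.60% also by more than 1.5-fold. The median log2 fold change of the 20 was -1.51. Atoh1 at -0.05 (adjusted p = 0.900, edgeR) and Ush1c at 0.18 (adjusted p = 0.110, edgeR) did not pass. By likeness to Dytn, the markers ran from rank 1 (Slc26a5) to rank 10056 (Ush1c) of 14035. Their summed level was 1332 to 1534 CPM in the control samples and 606 to 722 CPM in the neomycin samples. What part the lower HC markers had in the difference of Dytn was not tested.

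Markers of cells in which the dystrophin complex is well known were also read. The summed level of 18 skeletal muscle markers was 55.0 to 73.8 CPM in control and 54.1 to 56.6 CPM after neomycin. Most of that sum came from 3 genes with unlike differences. Their mean CPM in control and after neomycin were 25.6 and 21.8 for Tnnt1, 16.6 and 23.4 for Des, and 17.3 and 2.59 for Chrna1. Myod1 and Pax7 had no read in any sample and Ckm at most 3. Of the 11 muscle markers tested, Chrna1 was lower and Des higher at an adjusted p under 0.05 (edgeR). The marker counts that follow use the same threshold, at which 16.1% of all genes tested were lower and 12.9% higher. Smooth muscle and pericyte markers were lower for 4 of 10 at that threshold, with all 10 log2 fold changes negative. They summed to 228 to 270 CPM in control and 186 to 199 CPM after neomycin. Endothelial markers were lower for 7 of 10, with 9 negative values and 1 positive and a median log2 fold change of -1.94. Their sum of 286 to 321 CPM in control nevertheless overlapped that of 269 to 320 CPM after neomycin. Most of that sum was Emcn, at 238 to 259 CPM in control and 245 to 298 CPM after neomycin, and the other 9 endothelial markers summed to 48.0 to 61.9 CPM in control and to 21.2 to 23.6 CPM after neomycin. Neuronal markers were lower for 4 of 10 and higher for 1, with 8 negative and 2 positive values. They summed to 199 to 288 CPM in control and 186 to 204 CPM after neomycin. Sums for Schwann cell markers were 541 to 596 and 532 to 567 CPM, with 1 of 10 lower, and those for mesenchymal markers 6585 to 7286 and 6974 to 7174 CPM, with 3 lower and 2 higher. Supporting cell markers summed to 9265 to 10076 CPM in control and to 10949 to 11675 CPM after neomycin, with 3 of 15 lower and 2 higher. Epyc (5530 and 6384 CPM on average, adjusted p = 0.132, edgeR) and S100a1 (1560 and 2143 CPM) made up most of this sum, and the other 13 summed to 2534 to 2800 CPM in control and 2580 to 3126 CPM after neomycin. The part of these cells in the lower levels of Utrn, Dtna and Dag1 was not tested.

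The rest of the complex and its pathway was read from 3 lists with 34 genes reported here, all of them tested. Of these, 9 had an adjusted p under 0.05 and 3 of the 9 also a fold change over 1.5 (edgeR), shares close to those of all genes, 29.0% and 8.84%. Of the 3, 2 were lower and 1 was higher, beside 6.60% and 2.24% of all genes. Among 10 other subunits, both genes that passed were syntrophins, adaptor proteins that bind dystrophin and dystrobrevin. Sntg1 at -0.59 (adjusted p = 0.199, edgeR) and Sntg2 at 0.19 (adjusted p = 0.728, edgeR), also syntrophins, did not pass. Sntb1, encoding beta-1-syntrophin, read 33.2, 29.2 and 18.4 CPM in control and 11.5, 10.3 and 7.33 CPM after neomycin. It fell by 1.47 on the log2 scale (standard error 0.20, adjusted p = 3.51e-04, edgeR), the largest difference among the subunits, although control replicate 3 was well below the other controls. Sntb2, encoding beta-2-syntrophin, read 14.3, 14.4 and 9.85 CPM in control and 8.04, 7.41 and 6.81 CPM after neomycin, a log2 difference of -0.79 (standard error 0.15, adjusted p = 0.00271, edgeR). Both kept an adjusted p under 0.05 in all 16 alternatives, up to 0.00331 for Sntb1 and 0.0198 for Sntb2. Highest among these subunits by log2 fold change was Sgcz, encoding zeta-sarcoglycan, at 0.74 (adjusted p = 0.306, edgeR), from 15, 28 and 29 reads in control and 27, 69 and 22 after neomycin. The median of the list was -0.01, and 1 more gene, Sgce at 0.22, had an unadjusted p under 0.05 with edgeR, DESeq2 and limma-voom alike.

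Of the genes that build the sugar chains of alpha-dystroglycan, 16 are reported, with a median log2 fold change of 0.06. Among these, 3 were higher at an adjusted p under 0.05 with edgeR, as were 12.9% of all genes tested. The count was 4 with DESeq2 and with limma-voom. With edgeR, 12 of the 16 values were positive and 4 negative, and 6 genes were higher and 1 lower at an unadjusted p under 0.05. This lean was not kept by other processing. After the length correction 8 of 15 values were positive and 7 negative, and without TMM scaling 7 of 16 were positive and 9 negative. Dpm1, the catalytic subunit of the synthase that makes the mannose donor, read 2.30, 2.86 and 2.92 CPM in control and 5.18, 4.51 and 5.94 CPM after neomycin, a log2 difference of 0.95 (standard error 0.18, adjusted p = 0.00290, edgeR). The reads of Dpm1 are uncertain to some degree, since 895 of its exon bases are shared with Gm20716 on the same strand. Dpm1 kept an adjusted p under 0.05 in all 16 alternatives. Tmem5, a xylose transferase of the chain, rose by less, at 0.31 (adjusted p = 0.0154, edgeR), and so did Dpm2, a partner of Dpm1, at 0.30 (adjusted p = 0.0115, edgeR). The adjusted p of Tmem5 rose above 0.05 without control replicate 2 (0.0669) or neomycin replicate 2 (0.0945), and that of Dpm2 without neomycin replicate 2 (0.0511) and after the length correction (0.182). The other 13 did not pass, and the lowest of them was Pomgnt1, a transferase that extends the mannose, at -0.15 (adjusted p = 0.0972, edgeR), the single gene of the 16 with a negative value and an unadjusted p under 0.05. Its samples ran from 86.7 to 91.6 CPM in control and from 79.6 to 80.4 CPM after neomycin, and 641 of its exon bases are shared with Lurap1 on the other strand.

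Of 8 ligands that bind the sugar chains from outside, 3 were lower and 1 was higher at an adjusted p under 0.05 and none passed the fold threshold (edgeR, DESeq2 and limma-voom alike). Of all genes tested, 16.1% were lower and 12.9% higher at that adjusted p (edgeR). The same 4 ligands had an unadjusted p under 0.05, and the median log2 fold change was -0.34, or -0.13 after the length correction. With that correction, 1 ligand was lower and 2 were higher at an adjusted p under 0.05, beside 13.1% and 10.4% of all genes. Lama5, the laminin alpha-5 chain of epithelial and vessel basement membranes, read 233, 212 and 189 CPM in control and 159, 143 and 162 CPM after neomycin. It stood at -0.45 on the log2 scale (standard error 0.09, adjusted p = 0.00327, edgeR), and it kept an adjusted p under 0.05 in all 16 alternatives. Agrn, encoding agrin, was lower, at -0.33 (adjusted p = 0.0196, edgeR). Hspg2, encoding perlecan, was lower, at -0.47 (adjusted p = 0.0219, edgeR), although control replicate 3, at 153 CPM, lay below neomycin replicate 3, at 156 CPM. Both had an adjusted p above 0.05 after the length correction (-0.16, 0.145 for Agrn and -0.21, 0.161 for Hspg2), with the median transcript length (-0.04, 0.717 and -0.07, 0.635), and without control replicate 1 (0.0824 and 0.0736) or neomycin replicate 2 (0.0978 and 0.0930), and Hspg2 also without control replicate 2 (0.0637). Egflam, encoding pikachurin, was higher by 0.24 (adjusted p = 0.0458, edgeR) and had an adjusted p above 0.05 when any sample but control replicate 1 was left out, from 0.0608 to 0.143, or when TMM scaling was omitted (0.172). Lama2, the laminin alpha-2 chain of muscle and nerve, overlapped between the groups at 0.03 (adjusted p = 0.901, edgeR), and was named after its values were seen.

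**Figure D5:**
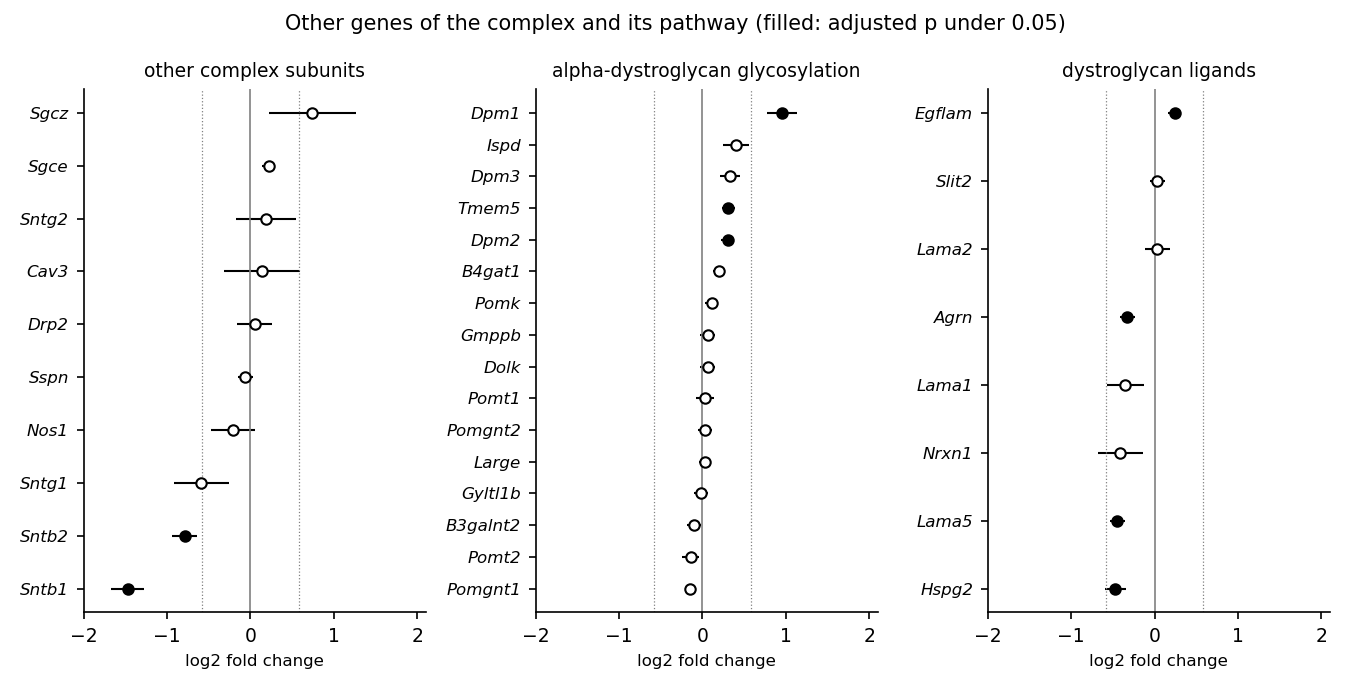
Log2 fold change of neomycin against control for 34 other genes of the complex and its pathway, in 3 lists, with bars of 1 standard error; filled points have an adjusted p under 0.05 (edgeR) and dotted lines mark a fold change of 1.5. Sntb1 and Sntb2 lie past the lower line and Dpm1 past the upper line, while Agrn, Hspg2, Lama5, Egflam, Tmem5 and Dpm2 are filled but lie inside the lines.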

How the data were processed

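RNA of 6 pooled samples, 3 control and 3 neomycin, was prepared with an Illumina mRNA kit. Per the labels and the methods, the authors used CASAVA 1.8, Trimmomatic 0.23, HISAT2 on mm10 and HTSeq, and deposited whole-number counts per gene symbol without normalization. The strand setting and the treatment of reads with several matches are not given in the sources used here. Total counts ran from 50471116 to 66068108 per sample, and 4596 symbols had no count. Intervals cover the spread between samples, which nothing says are separate cultures, so p-values may measure technical spread only. A floor of 3 counts covers counting error only.

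Library sizes were scaled by TMM, filterByExpr kept 15988 genes, and neomycin was compared with control in edgeR 4.0.16 under R 4.3.3 (quasi-likelihood test, p adjusted by Benjamini-Hochberg across the table). Standard errors are the log2 fold change over the square root of F. Sequencing depth gave the tested relatives between 176 and 18825 reads in a sample. Exon lengths came from GENCODE M21, in which 23376 symbols matched directly and 650 through an older symbol, and 99.2% of the tested genes had a length. The length correction fitted a lowess curve (span 0.3) of log2 ratio against exon length in every sample and took it out.

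The 9 genes and all lists were chosen with earlier results of these data known. Named from the other lists were the genes called, the highest and lowest of each pathway list, the 5 genes most like Dytn and defining markers at or near 0. Further genes were named outside that rule. They are pathway genes at an adjusted p under 0.05, Sgce at an unadjusted p under 0.05, and syntrophins that did not pass. The rest are HC markers that did not pass, muscle markers that did, markers that made up most of a sum, and 1 gene named as chosen later. From the lists of other subunits and glycosylation genes, 4 genes are not reported here and are in no count or median of these lists. Of each pair of samples within a group, the counts differed by more than sampling noise (mean chi-square per gene 13.7 to 46.7). Alternatives were DESeq2 1.42.0, limma-voom (limma 3.58.1), other scalings and filters, the replicate number as a block, the length correction with and without the block, and each sample left out. A correction on the median transcript length was added after the data were seen. Scripts were tested on simulated data. Promoters are RefSeq, GRCm38.p6. Figures were drawn with matplotlib 3.10.9.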

Additional observations from a re-analysis of the deposited data

How the results depend on the processing

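Leaving out the fold change threshold moved the counts most: with an adjusted p under 0.05 alone, 4629 genes of the whole table passed in place of 1413, 3 relatives of Dytn in place of 0, and 9 of the other pathway genes in place of 3. With 1 sample left out at a time, 1 to 3 relatives kept an adjusted p under 0.05, the count being 1 (Dtna) without neomycin replicate 2 or 3, and the calls over the whole table ran from 1037 to 1672. After the length correction 3 relatives again passed, but they were Dmd and Dtnb, both higher, and Dag1, lower. Without it they were Utrn, Dtna and Dag1, all lower. With the correction on median transcript length 2 passed, Utrn and Dtna, both lower. The cause of the length trend was not tested. Lower genes made up 74.7% of the calls, 84.3% without TMM, where the median of all genes stood at -0.07. The replicate numbers were not taken to pair the samples in the main fit. The deviations of same-numbered samples correlated at 0.165, 0.026 and 0.095, and those of other pairs at -0.129 to 0.032. Each neomycin replicate was closest to the control of its own number, but control replicate 2 was closest to neomycin replicate 3. These values do not settle whether the samples are paired. At an adjusted p under 0.05, the replicate block gave 3229 lower and 2785 higher genes, beside 2571 and 2058 without it. With the replicate block 1465 genes were called (1089 lower, 376 higher), and the ratio differences of 0.40 and -0.43 had p = 0.250 in an exact paired permutation test, the smallest that 3 pairs can give. At 1 to 11 reads per sample, depth left Sgca untested.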
